A study of Mus musculus with 34 samples.

Results

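The genes described here encode the machinery of 2 lytic forms of cell death, pyroptosis and necroptosis, and were chosen by name. They are *Nlrp3*, *Pycard*, *Casp1*, *Casp4* and *Gsdmd* of the inflammasome pathway and *Casp8*, *Ripk1*, *Ripk3* and *Mlkl* of the necroptosis pathway. These 9 genes of the 23509 in the tables were compared in polycystic and normal mouse kidneys, and all 9 were among the 15644 genes that passed the filter on low counts.

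Kidney polyadenylated RNA was sequenced from 34 C57BL6 mice at postnatal day 28. *Pkd2*-KO mice, whose genotype the labels spell Pdk2KO, received either the anti-miR-17 oligonucleotide RGLS4326 (n = 11) or PBS (n = 11) by subcutaneous injection, the oligonucleotide at 20 mg per kg. Both groups were dosed on postnatal days 10, 11, 12 and 19. Age-matched mice that were untreated and non-transgenic (UNT, n = 12) had neither the knockout nor an injection, so genotype and injection cannot be told apart in comparisons with UNT. In the knockout the floxed *Pkd2* alleles are removed by a Cre recombinase under the *Pkhd1* promoter, so kidney cells in which that promoter is inactive keep *Pkd2*. The authors describe collecting duct cysts in this model, and which cells lost *Pkd2* was not measured here. PBS vs UNT is called the disease contrast and RGLS4326 vs PBS the treatment contrast.

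Between 17603122 and 54981992 reads per library fell in genes. *Pkd2* was 274 ± 34.4 CPM (counts scaled to library size, mean ± SD) in UNT, 160 ± 32.2 in PBS and 210 ± 23.8 in RGLS4326 kidneys. The *Pkd2* counts span the whole gene and all cells, so they do not read out the deleted part alone. The libraries fell into 3 sets by a numbering that restarts in their names, each with 3 or 4 mice of every group. Reads outside genes made up 9.84% to 11.3% of the reads in UNT, 5.17% to 8.99% in PBS and 4.94% to 12.0% in RGLS4326 libraries. Multi-mapped reads made up 22.8% to 25.7% in UNT, 14.8% to 19.4% in PBS and 14.8% to 19.1% in RGLS4326 libraries. UNT overlapped neither knockout group in the latter and did not overlap PBS in the former, so these percentages and the group cannot be told apart there, and contrasts with UNT adjusted for them are extrapolations. All listed markers of proximal tubule, thick ascending limb and podocytes had counts in every library. So had those of macrophages, so the presence of counts does not check the tissue label. *Pvalb*, of the distal convoluted tubule, was at 0 in 6 PBS and 2 RGLS4326 libraries.

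In pyroptosis, a sensor such as NLRP3 recruits the adaptor ASC, encoded by *Pycard*, which gathers and activates caspase-1. Caspase-1 matures interleukin-1β and interleukin-18 and cuts gasdermin D, whose freed end forms pores in the plasma membrane. Caspase-11, encoded by mouse *Casp4*, binds bacterial lipopolysaccharide in the cytosol and cuts gasdermin D directly. In necroptosis, death receptors and innate sensors bring RIPK1 and RIPK3 together, RIPK3 phosphorylates MLKL, and MLKL breaks the plasma membrane, whereas active caspase-8 cleaves the kinases and holds the pathway in check. Both routes have been studied in injured kidney tubules and in kidney macrophages.

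The oligonucleotide is complementary to the seed region of miR-17, so the miRNA and the matches to its seed in the 9 genes are shown first. The mature sequence below is from RefSeq (GRCm38.p6, chr14:115043684-115043706, plus strand), with the seed, bases 2 to 8, in capitals.
mmu-miR-17-5p: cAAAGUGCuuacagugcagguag

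The 3′UTRs searched for matches were the longest that GENCODE M21 (GRCm38) annotates, and a match was GCACTTT (7mer-m8), CACTTTA (7mer-A1) or both overlapping in GCACTTTA (8mer). *Casp8*, *Pycard* and *Ripk1* held a match and the other 6 genes held none, whereas 21.2% of the 14193 tested genes with a 3′UTR held at least 1. No 8mer was found among the 9 genes, against 4.26% of all tested genes with a 3′UTR. The 4 matches are printed 5′ to 3′ on the transcript's strand, with the match in capitals and 10 bases on either side.
*Casp8*, 7mer-m8, chr1:58846782-58846808, plus strand: gcttatctgtGCACTTTtgtgtggatg
*Pycard*, 7mer-m8, chr7:127990780-127990806, minus strand: actcaaggttGCACTTTtgacctctac
*Ripk1*, 7mer-A1, chr13:34035802-34035828, plus strand: tcaaccatttCACTTTAagttaatgaa
*Ripk1*, 7mer-A1, chr13:34036624-34036650, plus strand: tatagtgacaCACTTTAaggcacctgg
The match in *Casp8* begins 38 bases into a 3′UTR of 749 bases, and that in *Pycard* 1916 bases into one of 3004 bases. The *Ripk1* matches begin 3030 and 3852 bases into a 3′UTR of 4365 bases. A match is a stretch of letters and was not tested as a site of miR-17 binding.

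Promoters were read from 250 bases before to 50 bases after each start site listed in RefSeq (GRCm38.p6), which gave 11 windows for 8 of the 9 genes, and none was listed for *Gsdmd*. They are shown because the genes rose together in the disease contrast below. The κB motif, bound by NF-κB, matched in *Casp4* and in 1 of the *Nlrp3* windows, against 4.51% of 32851 promoters of the same length. Both strands were searched, and the motif is in capitals. The windows are printed on the plus strand, and the *Nlrp3* motif reads on the opposite strand of the letters shown.
*Casp4*, κB, chr9:5308747-5308775, plus strand: tgagttacaGGGGATTTCCCcacagcagt
*Nlrp3*, κB, chr11:59541373-59541402, plus strand: ggcttctgcaGGGAACCCCCgggaattctg
The capitals in *Casp4* hold 2 overlapping matches, the first beginning 93 or 104 bases before the listed starts, and the *Nlrp3* match begins 186 bases before its start. The Sp1 motif GGGCGG matched in windows of *Pycard*, *Ripk1* and *Ripk3* and in 35.7% of all promoters. No κB match was found in the windows of *Pycard*, *Casp1*, *Casp8*, *Ripk1*, *Ripk3* or *Mlkl*, which says only that these letters are not there.

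All 9 genes rose in the disease contrast. Of all genes tested, 43.1% were called higher and 39.0% lower (adjusted p under 0.05), so a call alone is common here. The median log2 fold change of the 9 genes was 1.82, against 0.0385 over all genes tested. The PBS and UNT mice did not overlap for 7 of the 9, with *Casp4* and *Ripk1* as the exceptions, and 22.7% of all genes tested were higher with no overlap. Scaling by library totals alone moved the median of all genes to 0.33 and the split of calls from 6746 higher and 6095 lower to 8970 and 4099, and the 9 genes stayed higher. In whole-kidney RNA, fewer cells of a type and less RNA per cell cannot be told apart.

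**Figure D1:**
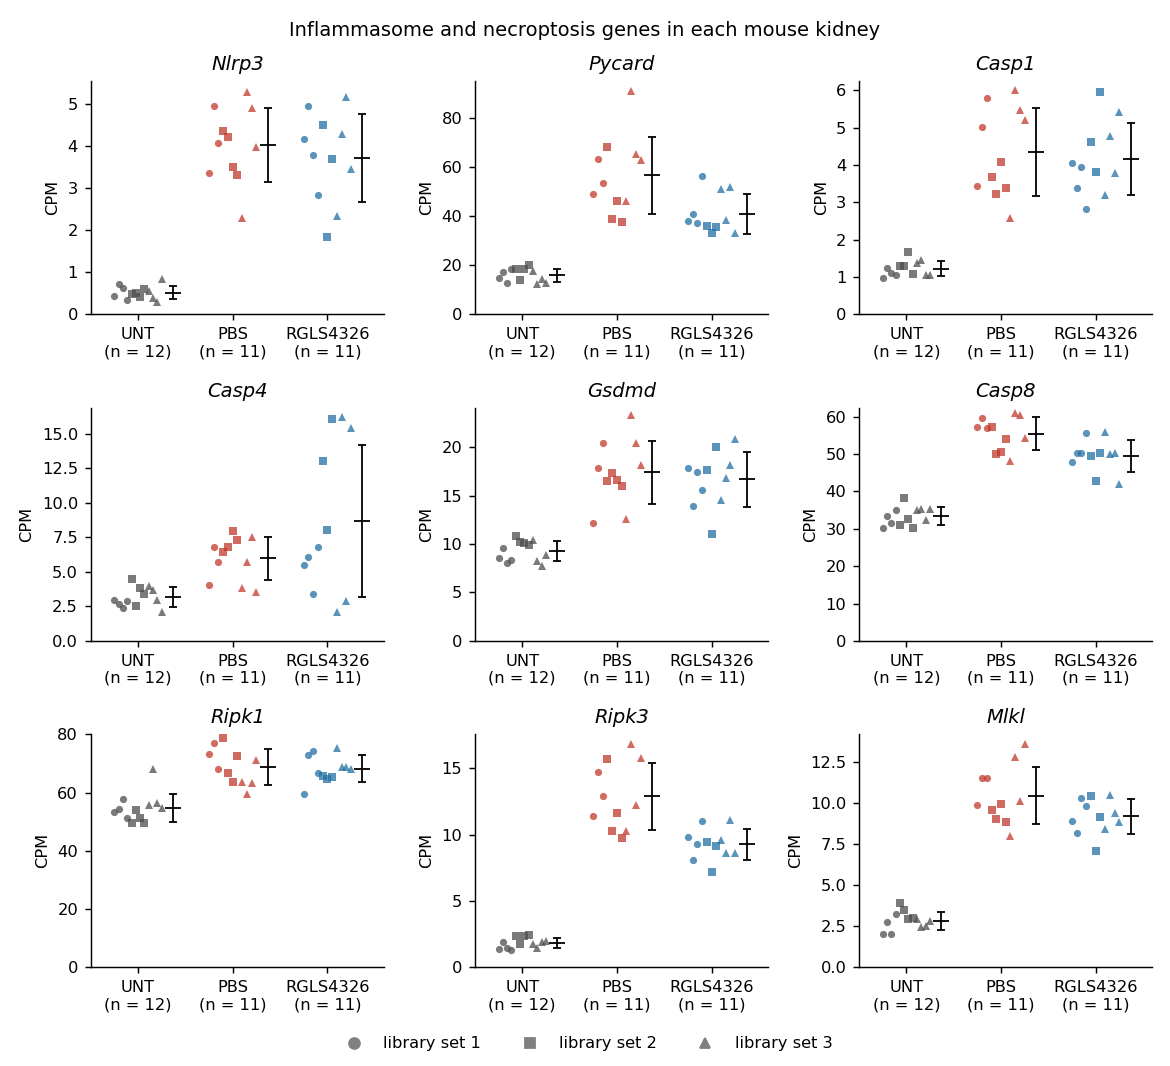
Level of each of the 9 genes in every mouse, in CPM on linear axes from 0, by group; each point is 1 mouse, its shape gives the library set, and the black mark with bars is the mean ± SD. For *Nlrp3* and *Ripk3* every Pkd2-KO mouse lies above every UNT mouse, and *Casp4* spreads from 2.09 to 16.2 CPM in the RGLS4326 group.

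*Nlrp3* (ENSMUSG00000032691, chr11:59541568-59566956), the sensor, was near the floor of measurement in normal kidney, with as few as 8 counts in a library. Its lowest, median and highest levels were 0.304, 0.492 and 0.842 CPM in UNT, 2.30, 4.07 and 5.30 CPM in PBS, and 1.85, 3.78 and 5.16 CPM in RGLS4326 mice. Every knockout mouse, treated or not, stood above the highest UNT mouse. The disease contrast was 2.96 on the log2 scale (SE 0.17, adjusted p = 1.2e-17), or 7.77-fold. The treatment contrast was -0.11 (SE 0.15, adjusted p = 0.60), with 6 of 11 treated mice below the PBS mean.

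*Pycard* (ENSMUSG00000030793, chr7:127989708-127993867) encodes ASC, the adaptor that joins sensor to caspase-1. Its lowest, median and highest levels were 12.2, 15.9 and 20.0 CPM in UNT, 37.6, 53.5 and 90.9 CPM in PBS, and 33.0, 37.9 and 56.2 CPM in RGLS4326 mice. The knockout groups stood clear of UNT, and the treated mice lay in the lower part of the PBS range or below it. *Pycard* was 3.54-fold higher in the disease contrast (log2 fold change 1.82, SE 0.13, adjusted p = 1.3e-15). It fell in the treatment contrast by 0.46 on the log2 scale (SE 0.12, adjusted p = 0.00781), with 11 of 11 treated mice below the PBS mean and 5 below the lowest PBS mouse. Adjusted for the percentage of reads outside genes the fall was not called (-0.22, adjusted p = 0.280). Its exons share 485 bases with *Gm45205* on the opposite strand, and the strand setting of the counting is not given in the sources used here, so its counts are uncertain to that extent.

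*Casp1* (ENSMUSG00000025888, chr9:5298517-5307265), the effector caspase of the inflammasome, ranged from 0.967 to 1.67 CPM in UNT, from 2.59 to 6.0 CPM in PBS and from 2.83 to 5.97 CPM in RGLS4326 mice. The treated and PBS ranges nearly coincided, and neither overlapped UNT. In the disease contrast the log2 fold change was 1.82 (SE 0.14, adjusted p = 2.9e-14), and treatment moved it by -0.06 (SE 0.14, adjusted p = 0.736). Extrapolated with the percentage of multi-mapped reads as a covariate, the disease contrast was 2.65. The treatment contrast had no common direction across library sets, at -0.41 in set 1, 0.44 in set 2 and -0.16 in set 3, none of them past the threshold.

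*Casp4* (ENSMUSG00000033538, chr9:5308828-5336783) encodes caspase-11 of the non-canonical inflammasome and lies next to *Casp1*. It ranged from 2.13 to 4.51 CPM (median 2.95) in UNT and from 3.56 to 7.97 CPM (median 6.45) in PBS mice, and 8 of 11 PBS mice exceeded every UNT mouse. The disease contrast was 0.91 (SE 0.26, adjusted p = 0.00152), and in library set 3 alone it was 0.68 (adjusted p = 0.287). Extrapolated with the percentage of reads outside genes as a covariate it was 1.85, and with that of multi-mapped reads 2.74. The RGLS4326 mice, by replicate from 1 to 11, had 5.47, 6.08, 3.41, 6.81, 13, 8.01, 16.1, 2.09, 16.2, 2.90 and 15.4 CPM. Of these, 5 lay above the highest PBS mouse, 3 below the lowest and 3 within the PBS range. The coefficient of variation was 63.3% in the treated group, 25.8% in PBS and 22.7% in UNT, and no other of the 9 genes was spread this widely in any group. *Casp4* was 0.54 higher on the log2 scale in the treatment contrast and did not pass the test (SE 0.26, adjusted p = 0.0973), but did without replicate 8 (0.64, adjusted p = 0.0322) or 10 (0.63, adjusted p = 0.0412) of the RGLS4326 group. It was 0.81 in library set 2 (adjusted p = 0.0243), 0.82 in set 3 (adjusted p = 0.385) and -0.03 in set 1 (adjusted p = 0.957). In set 2 the treated libraries had 11.3% to 12.0% of their reads outside genes and the PBS libraries 5.49% to 8.99%. Treatment and this percentage cannot be told apart in that set.

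The spread of *Casp4* moved with a property of the libraries. The 5 treated mice above the PBS range had 8.92% to 12.0% of their reads outside genes, and the other 6 had 4.94% to 8.38%. Over all 34 mice, deviations of log2(CPM + 0.5) from the group mean went with those of this share at r = 0.617 (rho = 0.551), and at r = 0.633 over 32 mice without the 2 farthest from the median share. Within groups it was -0.397 over the UNT, 0.471 over the PBS and 0.714 over the RGLS4326 mice. Adjusted for this share, the treatment contrast of *Casp4* was -0.09 (adjusted p = 0.857). Correlations over mice are given as descriptions, without p-values, since the values of a mouse share its library and depth.

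**Figure D2:**
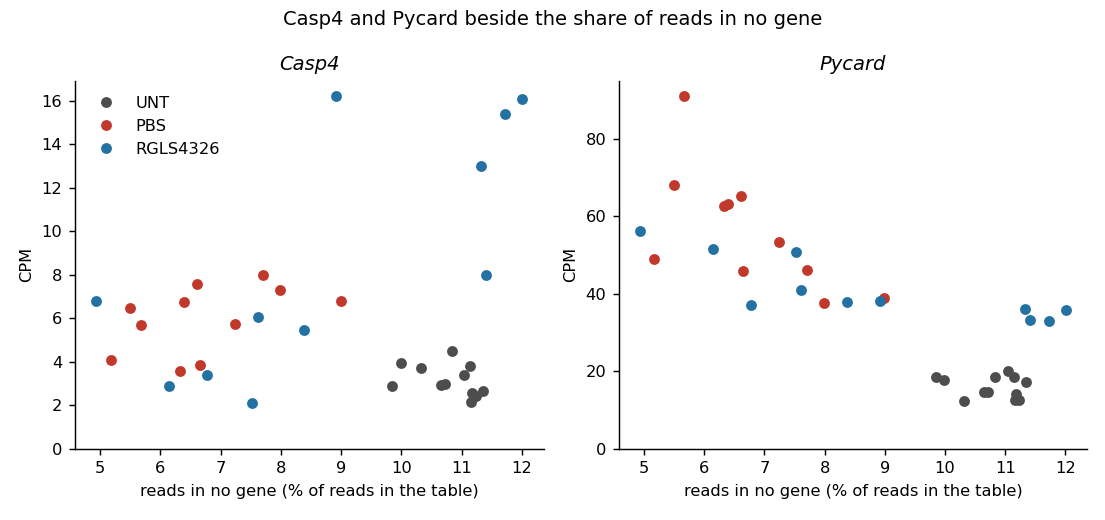
*Casp4* (left) and *Pycard* (right) in CPM against the reads outside genes, in percent of the reads in the table; each point is 1 mouse, coloured by group. In the RGLS4326 mice with 11.3% to 12.0%, *Casp4* is at 8.01 to 16.1 CPM and *Pycard* at 33.0 to 36.0 CPM.

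*Gsdmd* (ENSMUSG00000022575, chr15:75862327-75867408), the pore-forming executor of pyroptosis, ranged from 7.75 to 10.8 CPM in UNT, from 12.2 to 23.3 CPM in PBS and from 11.0 to 20.8 CPM in RGLS4326 mice. All knockout mice were above all UNT mice, and the treated mice filled nearly the PBS range. Its disease contrast was 0.91 (SE 0.10, adjusted p = 1.5e-10) and its treatment contrast -0.06 (SE 0.10, adjusted p = 0.649), both as log2 fold changes.

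*Casp8* (ENSMUSG00000026029, chr1:58795374-58847503), the protease at the branch between apoptosis, necroptosis and survival, had lowest, median and highest levels of 30.2, 33.0 and 38.2 CPM in UNT, 48.2, 57 and 60.9 CPM in PBS, and 41.9, 50.2 and 55.8 CPM in RGLS4326 mice. The groups were tight, and neither knockout group overlapped UNT. The disease contrast was 0.73 (SE 0.05, adjusted p = 2.3e-15). *Casp8* fell in the treatment contrast by 0.16 on the log2 scale (SE 0.05, adjusted p = 0.0194), with 9 of 11 treated mice below the PBS mean, and the call was lost on adjustment for reads outside genes (-0.08, adjusted p = 0.353).

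*Ripk1* (ENSMUSG00000021408, chr13:34002363-34037147), the kinase and scaffold of the death receptor complex, had the smallest disease contrast of the 9 genes at 0.33 (SE 0.05, adjusted p = 4.7e-07). It ranged from 49.5 to 68.0 CPM in UNT and from 59.5 to 78.7 CPM in PBS mice, and 6 of 11 PBS mice exceeded the highest UNT mouse. That UNT mouse, replicate 10, stood apart from the next, at 57.7 CPM. In library set 3 alone the contrast was 0.13 (adjusted p = 0.296), and extrapolated with multi-mapped reads as a covariate it was 0.27 (adjusted p = 0.0773). The RGLS4326 mice ranged from 59.7 to 75.3 CPM, and the treatment contrast was -0.01 (SE 0.05, adjusted p = 0.859). The exons of *Ripk1* share 241 bases with *Serpinb6a* on the opposite strand and 511 bases with the pseudogene *Gm17084*, so its counts are uncertain to that extent.

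*Ripk3* (ENSMUSG00000022221, chr14:55784995-55788865), the kinase that commits a cell to necroptosis, rose 6.93-fold in the disease contrast (log2 fold change 2.79, SE 0.12, adjusted p = 8.0e-22). The order of *Nlrp3* and *Ripk3* was not stable, since in library set 1 alone *Ripk3* (3.06) exceeded *Nlrp3* (2.87). Its lowest, median and highest levels were 1.31, 1.84 and 2.47 CPM in UNT, 9.76, 12.2 and 16.8 CPM in PBS, and 7.19, 9.26 and 11.1 CPM in RGLS4326 mice. Of the treated mice, 8 lay below the lowest PBS mouse, and all 11 remained far above the highest UNT mouse. The treatment contrast was a fall by 0.47 on the log2 scale (SE 0.11, adjusted p = 0.00349), with 11 of 11 treated mice below the PBS mean, and was not called on adjustment for reads outside genes (-0.36, adjusted p = 0.111).

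*Mlkl* (ENSMUSG00000012519, chr8:111311797-111338177), the membrane executor that RIPK3 phosphorylates, ranged from 2.03 to 3.90 CPM in UNT, from 8.0 to 13.6 CPM in PBS and from 7.04 to 10.5 CPM in RGLS4326 mice. The disease contrast was 1.87 on the log2 scale (SE 0.10, adjusted p = 1.6e-18). The treatment contrast was -0.19 (SE 0.10, adjusted p = 0.137), with 10 of 11 treated mice below the PBS mean.

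In the treatment contrast, 3 of the 9 genes were called lower (*Pycard*, *Casp8* and *Ripk3*) and 0 higher. DESeq2 also called 3 lower and 0 higher, and at an unadjusted p under 0.05 edgeR had *Casp4* as 1 higher gene beside these 3. Over all genes tested, 18.5% were called lower and 15.3% higher, so 3 of 9 lower is to be read against that background. None of the 9 separated the groups, as did 0.0639% of all genes tested. The median log2 fold change was -0.107, against 0.00224 over all genes tested, and 8 of 9 values were negative. Of the 3 genes that fell, *Pycard* and *Casp8* hold a 7mer-m8 match to the miR-17 seed and *Ripk3* holds none. *Ripk1*, with 2 7mer-A1 matches, stood at -0.01. The disease and treatment contrasts share the PBS mice.

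The 3 lower calls rested on all mice together. Within sets 1, 2 and 3, *Ripk3* was -0.44, -0.45 and -0.54, *Pycard* -0.35, -0.43 and -0.61, and *Casp8* -0.17, -0.14 and -0.18, each negative and none past the threshold in sets of 3 or 4 mice a group. At an unadjusted p under 0.05, *Pycard* and *Ripk3* were lower in each of the 3 sets and *Casp8* in set 1. Adjusted for the percentage of reads outside genes, none of the 9 was called. At an unadjusted p under 0.05 it kept 1, *Ripk3*. That adjustment left 56 genes called higher and 33 lower over the whole table. Deviations from the group mean went with this percentage at r = -0.598 for *Pycard*, -0.543 for *Casp8* and -0.341 for *Ripk3* over 34 mice (rho = -0.604, -0.543 and -0.274), and at -0.556, -0.554 and -0.316 without the 2 farthest mice. In UNT, PBS and RGLS4326 mice apart, r was -0.174, -0.708 and -0.835 for *Pycard*, -0.208, -0.585 and -0.69 for *Casp8*, and 0.486, -0.62 and -0.615 for *Ripk3*.

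**Figure D3:**
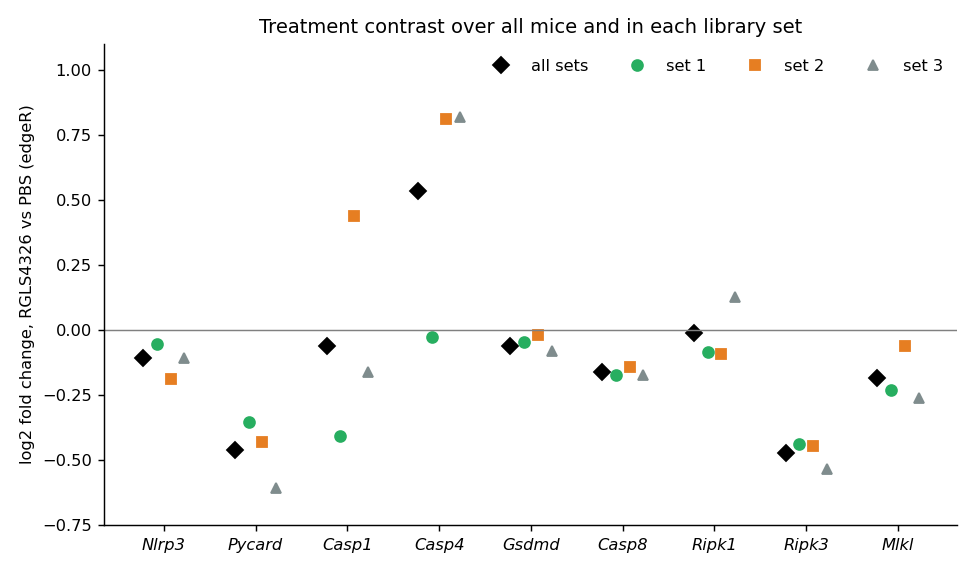
Log2 fold change of RGLS4326 against PBS (edgeR, vertical axis) for each of the 9 genes, over all mice (diamonds) and within each library set. *Nlrp3*, *Pycard*, *Gsdmd*, *Casp8*, *Ripk3* and *Mlkl* are below 0 in every set, whereas *Casp1*, *Casp4* and *Ripk1* lie on both sides of 0.

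In treated kidneys the genes stayed above the normal level. All 9 genes were higher in RGLS4326 than in UNT mice, where 40.8% of all genes tested were called higher and 36.9% lower, with a median log2 fold change of 1.45 against 0.022 over all genes tested. Library totals alone moved that median of all genes to 0.33 and the split from 6385 higher and 5772 lower to 9148 and 3471, with the 9 genes still called higher. The groups did not overlap for 7 of 9 genes, *Casp4* and *Ripk1* again excepted, and 20.7% of all genes tested were higher with no overlap. *Nlrp3* stood at 2.85 (SE 0.17, adjusted p = 5.5e-17), *Ripk3* at 2.32 (SE 0.11, adjusted p = 1.6e-19) and *Casp4* at 1.45 (SE 0.26, adjusted p = 4.7e-06). Extrapolated with multi-mapped reads as a covariate, *Casp4* was 3.17 and *Casp1* 2.61, against 1.75 for *Casp1* without it. *Ripk1* was lowest at 0.32 (SE 0.05, adjusted p = 1.2e-06) and did not pass in that extrapolation (0.26, adjusted p = 0.106).

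**Figure D4:**
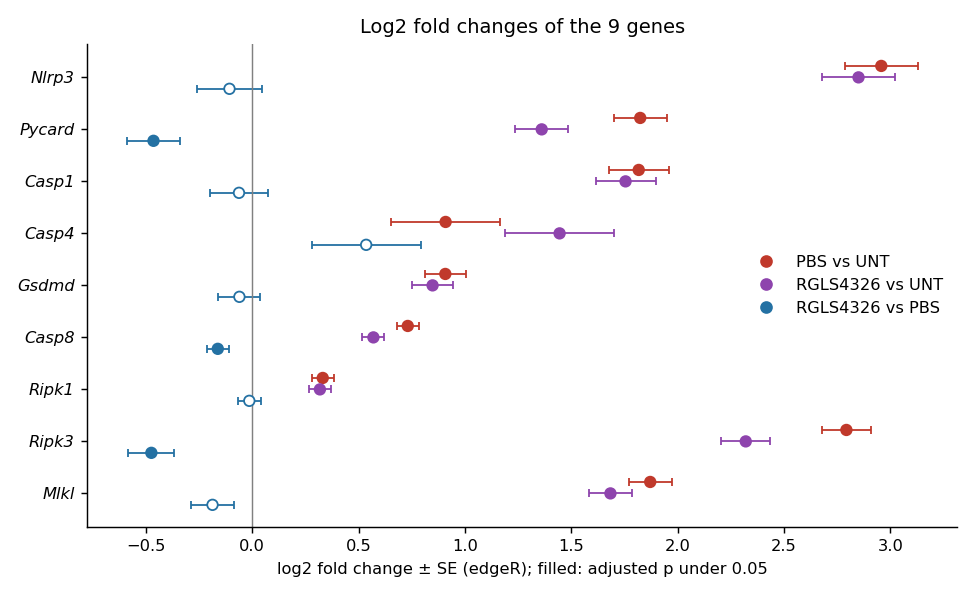
Log2 fold change ± SE (horizontal axis, edgeR) of each gene in the 3 contrasts, with filled points for an adjusted p under 0.05. All points of both contrasts with UNT are filled and right of 0, from 0.33 to 2.96 for PBS, and the filled points of the treatment contrast are *Pycard*, *Casp8* and *Ripk3*.

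Levels were compared between genes per kilobase of annotated exon. In UNT kidneys the order was *Casp8* at 11.5 CPM per kb, *Ripk1* at 6.56, *Pycard* at 4.19, *Gsdmd* at 3.89, *Mlkl* at 1.23, *Casp4* at 0.852, *Casp1* at 0.818, *Ripk3* at 0.807 and *Nlrp3* at 0.129. The ranges of *Pycard* and *Gsdmd* overlapped, as did those of *Mlkl*, *Casp4*, *Casp1* and *Ripk3*, and the other neighbours were separate. In PBS kidneys *Casp8* remained highest at 19.1 CPM per kb, *Pycard* followed at 14.9 and passed *Ripk1* at 8.26, and *Ripk3* at 5.61 passed *Mlkl* at 4.53, *Casp1* at 2.91 and *Casp4* at 1.61. *Nlrp3* remained lowest at 0.992 CPM per kb. Each PBS range overlapped that of the next gene in this order, except that *Pycard* (lowest 9.9) stood clear of *Ripk1* (highest 9.43). That separation rests on the annotated lengths, since without them *Ripk1* (68.9 CPM) stood above *Pycard* (56.5 CPM) in PBS. The RGLS4326 group had the same order of means with every neighbouring range overlapping, and had *Pycard* at 10.8, *Ripk3* at 4.04 and *Mlkl* at 3.98 CPM per kb.

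**Figure D5:**
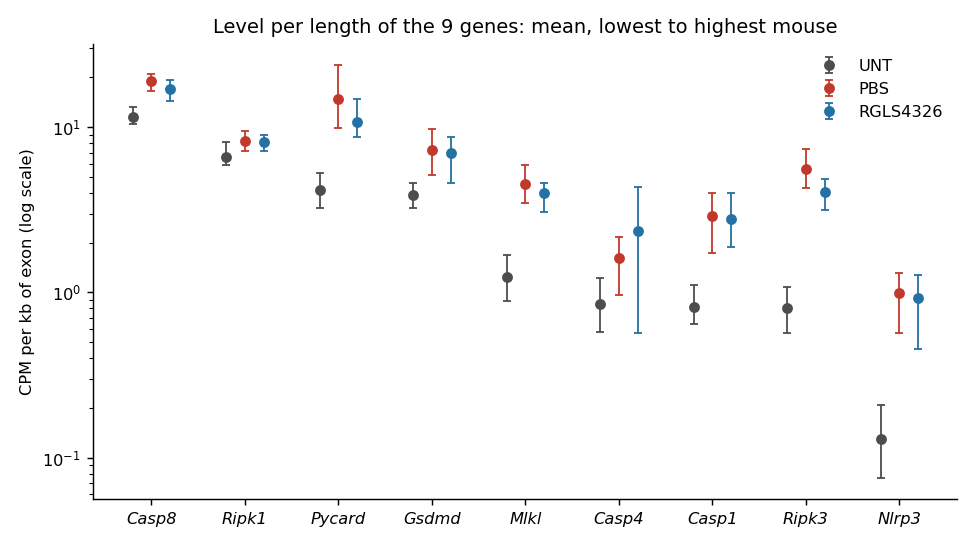
Mean level of each gene in CPM per kb of exon (log scale) in the 3 groups, with bars from the lowest to the highest mouse and genes ordered by their UNT mean. *Ripk3* moves from 0.807 in UNT to 5.61 in PBS, past *Mlkl*, and *Nlrp3* is lowest in all groups.

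Of 12 listed sensors and cofactors around these genes, 10 rose and 2 fell in the disease contrast, with a median log2 fold change of 1.38. The background over all genes tested, for this and the following lists, is 43.1% higher and 39.0% lower with a median of 0.0385 in the disease contrast, and 15.3% higher and 18.5% lower with a median of 0.00224 in the treatment contrast. A share of called genes near that background is no result about a list. In the treatment contrast the 5 lists together had 6 genes called higher and 13 lower, and edgeR called 0 of either direction when adjusted for the percentage of reads outside genes, an alternative chosen after the data were seen. At an unadjusted p under 0.05 that adjustment left 10 of their 63 tested genes, against 26 without it. With it the medians went from 0.132 to -0.0598 (sensors and cofactors), -0.281 to -0.247 (substrates) and -0.083 to -0.0256 (death receptor complex). Those of the other RIPK3 activators went from -0.076 to -0.0963, and of the apoptosis genes from -0.0921 to -0.0802. *Nlrc4*, which assembles with NAIP sensors, rose from 0.653 ± 0.153 to 2.82 ± 0.555 CPM (log2 fold change 2.10, adjusted p = 1.1e-15), and *Naip2*, 1 of those sensors, by 1.43 (adjusted p = 1.0e-16). *Mefv*, which encodes the pyrin sensor, rose by 2.81 (adjusted p = 2.2e-12). *Nlrp6*, a sensor of epithelial cells, went the other way, from 144 ± 18.5 CPM in UNT to 13.5 ± 5.06 in PBS (log2 fold change -3.41, adjusted p = 6.7e-20). *Nlrp6* was also the only one of the 12 called in the treatment contrast, where it rose by 0.66 to 21.3 ± 5.14 CPM (adjusted p = 0.00435), and the median of the 12 there was 0.132. *Nek7*, which binds NLRP3 on activation, was abundant in all groups and fell by 0.30 in the disease contrast (adjusted p = 0.00648).

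Of 13 listed substrates, gasdermins and pore partners, 11 were tested (*Gsdma* and *Gsdmc* were not), and 6 rose, 2 fell and 3 did not pass in the disease contrast (median 0.667). *Il1b*, the cytokine cut by caspase-1, rose from 0.473 ± 0.253 to 7.48 ± 2.51 CPM (log2 fold change 3.95, adjusted p = 9.4e-16). *Panx1*, a channel that releases ATP, rose by 3.18 (adjusted p = 2.8e-23), *P2rx7*, the ATP receptor upstream of NLRP3, by 1.46 (adjusted p = 5.4e-17), and *Casp12*, in the same cluster as *Casp1* and *Casp4*, by 1.83 (adjusted p = 6.3e-18). In the treatment contrast 1 rose, 3 fell and 7 did not pass (median -0.281). *Casp12* rose further by 0.39 (adjusted p = 0.00675), whereas *Panx1* fell by 0.42 (adjusted p = 0.00587) and *Ninj1*, which ruptures the membrane of dying cells, fell by 0.22 (adjusted p = 0.0223). *Il1b* stood at -0.34 (adjusted p = 0.242).

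Of 21 genes of the death receptor complex and its checkpoints, 20 were tested (*Fasl* was not), and 12 rose, 5 fell and 3 did not pass in the disease contrast (median 0.267). *Tnf* rose from 0.125 ± 0.0865 to 2.83 ± 1.02 CPM (log2 fold change 4.45, adjusted p = 7.1e-18), its receptor *Tnfrsf1a* by 1.30 (adjusted p = 1.5e-19), and the brakes *Tnfaip3* and *Birc3* by 2.24 (adjusted p = 5.0e-20) and 1.86 (adjusted p = 3.1e-19). Between RGLS4326 and PBS, 4 rose, 3 fell and 13 did not pass (median -0.083), shares near those of all genes tested, so the genes named next are single genes and not a result about the list. *Xiap*, an inhibitor of caspases, rose by 0.49 and *Map3k7*, the kinase TAK1, by 0.21 (adjusted p = 0.00547 and 0.0155). *Tradd*, the adaptor of the TNF receptor, fell by 0.36 (adjusted p = 0.00547), and *Otulin*, which trims linear ubiquitin, fell by 0.22 (adjusted p = 0.0170).

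All 5 of the other activators of RIPK3 rose in the disease contrast (median 1.02). *Zbp1*, a sensor of Z-form nucleic acids, rose by 2.22 (adjusted p = 2.5e-12), *Tlr4* by 1.55 (adjusted p = 1.0e-14), *Eif2ak2* by 1.02 (adjusted p = 5.0e-15), *Tlr3* by 0.53 (adjusted p = 9.7e-08) and the adaptor *Ticam1* by 0.26 (adjusted p = 0.000676). In the treatment contrast *Ticam1* fell by 0.21 (adjusted p = 0.0195) and the other 4 did not pass (median -0.076).

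Of 15 executioners and mitochondrial regulators of apoptosis, 10 rose, 2 fell and 3 did not pass in the disease contrast (median 0.514). The BH3-only genes *Pmaip1* and *Bbc3* rose by 2.20 (adjusted p = 2.9e-17) and 2.09 (adjusted p = 7.1e-18), *Apaf1*, the scaffold of the apoptosome, by 1.53 (adjusted p = 1.4e-19), and *Bak1* by 1.51 (adjusted p = 1.4e-16). Against PBS, 6 fell after RGLS4326, 0 rose and 9 did not pass (median -0.0921). *Bax* and *Bak1*, which open the outer mitochondrial membrane, fell by 0.42 (adjusted p = 0.00435) and 0.40 (adjusted p = 0.00477), and *Bcl2l1*, which restrains them, fell by 0.42 (adjusted p = 0.00334).

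Markers of several leukocyte types differed between the groups too. All 8 macrophage markers were higher in the disease contrast, 5 of 8 were lower in the treatment contrast and 3 did not pass, and their summed level was 105 to 174 CPM in UNT, 868 to 2660 in PBS and 823 to 1680 in RGLS4326 mice. None of the 8 was at 0 in any library, and *Adgre1*, the F4/80 antigen, stood at 83.9 ± 17.1 CPM in PBS and 88.1 ± 16.1 CPM in RGLS4326 mice. All 5 neutrophil markers tested were higher in the disease contrast and 1 of 5 lower in the treatment contrast, with sums of 1.63 to 7.71, 8.57 to 44.8 and 11.4 to 22.8 CPM in UNT, PBS and RGLS4326. Among these, *Cxcr2* was at 0 in 2 and *Retnlg* in 1 of the 12 UNT libraries. Of 4 T cell markers tested, 3 were higher in the disease contrast and 3 lower in the treatment contrast, and of 3 B cell markers 0 were higher and 1 was lower in the disease contrast.

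Deviations of the macrophage sum from the group mean went with those of *Pycard* at r = 0.711 (rho = 0.732), *Ripk3* at 0.694 (rho = 0.679), *Mlkl* at 0.653 (rho = 0.653), *Gsdmd* at 0.631 (rho = 0.567), *Casp8* at 0.607 (rho = 0.477) and *Nlrp3* at 0.605 (rho = 0.483) over 34 mice. Without the 2 mice farthest from the median sum the values were 0.740, 0.656, 0.553, 0.467, 0.478 and 0.397. *Casp1* stood at 0.496 (rho = 0.453), and at 0.379 without those 2 mice, with 0.933 over the 11 PBS and -0.28 over the 11 RGLS4326 mice. *Casp4* and *Ripk1* stood at -0.07 and -0.02, which pooled 0.511, 0.169 and -0.374 for *Casp4* and -0.358, 0.0366 and 0.184 for *Ripk1* in UNT, PBS and RGLS4326 mice. The neutrophil sum went more closely than the macrophage sum with *Gsdmd* (r = 0.764) and *Casp1* (0.662). The sum of 3 markers of all leukocytes did so with *Mlkl* (0.727) and, by a smaller margin, with *Gsdmd* (0.665), *Pycard* (0.715) and *Casp8* (0.61). These differences between sums were not tested. The macrophage sum itself went with the reads outside genes at r = -0.437 (rho = -0.421). The part of these cells in the results on the 9 genes was not tested.

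Markers of kidney cells moved as well. All 6 proximal tubule markers were lower in the disease contrast and 4 of 6 higher in the treatment contrast, with sums of 22700 to 33500 CPM in UNT, 976 to 4770 in PBS and 2470 to 5130 in RGLS4326 mice. All 5 collecting duct markers were higher in the disease contrast and 4 of 5 lower in the treatment contrast, with sums of 511 to 879, 843 to 2310 and 440 to 1990 CPM. All 4 fibroblast and pericyte markers were higher in the disease contrast, and none of them passed in the treatment contrast. All 3 podocyte markers and both of the thick ascending limb were lower in the disease contrast and higher in the treatment contrast. Both distal convoluted tubule markers were lower in the disease contrast and 1 was higher in the treatment contrast. Of 4 endothelial markers, 2 were higher and 2 lower in the disease contrast, and 3 were higher in the treatment contrast. Adjusted for reads outside genes, the treatment calls of the marker lists were lost too, except for *Slc5a2* of the proximal tubule and *Pecam1* of the endothelium. The median log2 fold changes stayed similar in some lists (proximal tubule 0.622 to 0.57, thick ascending limb 0.435 to 0.396, neutrophil -0.709 to -0.697). They shrank in others (macrophage -0.437 to -0.21, collecting duct -0.594 to -0.277, podocyte 0.362 to 0.185). The part of kidney cells in the results was not tested either.

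Among the 36 pairs of the 9 genes, 8 had r above 0.5 over deviations from the group means and none was below -0.5. *Pycard* went with *Ripk3* at r = 0.733 (rho = 0.654), *Casp1* with *Gsdmd* at 0.717 (rho = 0.750), *Ripk3* with *Mlkl* at 0.641 (rho = 0.594), *Gsdmd* with *Mlkl* at 0.638 (rho = 0.634) and *Nlrp3* with *Gsdmd* at 0.608 (rho = 0.451). Without the 2 farthest mice these were 0.682, 0.653, 0.619, 0.625 and 0.397, so the last of them rested in part on those mice. *Casp4*, *Casp8* and *Ripk1* were in none of these 8 pairs, with r from -0.265 to 0.478, from -0.265 to 0.462 and from -0.315 to 0.304 for their pairs.

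Over the whole table, the genes most like each of the 9 were ranked by the same r over 34 mice. Those of *Nlrp3* were *Inpp5d* (r = 0.765, rho = 0.699), *Samsn1* and *Ccr1*. *Gsdmd* was most like *Rasal3* (r = 0.842, rho = 0.774), *Cd300lf* and *Xaf1*, and *Mlkl* most like *Apol9a* (r = 0.793, rho = 0.841), *Irf1* and *Sdcbp2*. *Casp1* was most like *Trim12a* (r = 0.784, rho = 0.770), *Slfn8* and *AI662270*. *Pycard* was most like *Sepw1* (r = 0.905, rho = 0.882), *Clic1* and *S100a11*, *Ripk3* like *Mapkapk3* (r = 0.830, rho = 0.811), *Mdfi* and *Dusp10*, and *Casp8* like *Trf* (r = 0.764, rho = 0.688), *Ece2* and *Nfatc1*. *Casp4* was most like *Ptpn2* (r = 0.857, rho = 0.806), *AW146154* and *Dmtf1*, and *Ripk1* like *Sec23ip* (r = 0.843, rho = 0.788), *Npepps* and *Cand1*. By rho, 9 of these 27 genes were also among the 3 most alike.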

How the data were processed

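The authors prepared stranded mRNA libraries from whole kidneys and deposited, for each mouse, a table of unnormalized read counts by gene symbol. Totals of reads in no gene, ambiguous or without a unique alignment close each table and were kept out of library sizes. The submitters' processing notes name FastQC 0.11.2, Trim Galore, STAR, SAMtools 1.1, HTSeq 0.6.1 and Picard 1.119 with the mouse build GRCm38 (mm10). The gene annotation and the strand setting of the counting are not given in the sources used here.

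Counts were scaled by TMM and tested with the two-sided quasi-likelihood test of edgeR 4.0.16 (R 4.3.3) in 1 fit of 34 libraries and 3 groups, after filterByExpr. Adjusted p denotes the Benjamini-Hochberg value over all 15644 genes tested, and genes were called under 0.05. The procedure was run on simulated counts with 200 changed genes, in the disease contrast only. Far more genes were called in the data, so the simulation did not test scaling under such a shift, nor the treatment contrast. CPM are TMM-scaled. Lengths are unions of GENCODE M21 exons. The labels do not say that mice of a group came from separate litters, so p-values measure the spread between these mice.

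The 9 genes and all lists were chosen with earlier results of these data known, and lists were written from general knowledge. Named from each pathway list were genes among the 4 smallest p-values of the disease or of the treatment contrast, and from the whole table the 3 genes most like each of the 9 by Pearson's r. The tables list *Otulin* as *Fam105b*, *Adgre1* as *Emr1* and *Gsdme* as *Dfna5*. *Ly6g* and *Trac* were not analysed here. Other scaling, DESeq2 1.42.0, other filters, covariates, library sets, a replicate block and each left-out mouse were tried. Figures were drawn with matplotlib 3.10.9.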

Additional observations from a re-analysis of the deposited data

How the results depend on the processing

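The disease contrast kept 9 genes called, and RGLS4326 vs UNT 9, except for 8 each (without *Ripk1*) when adjusted for multi-mapped reads, an extrapolation since UNT does not overlap the knockout groups in them, and 7 for the disease contrast in library set 3 (without *Casp4* and *Ripk1*), with leave-one-out ranges of 9 to 9 for both. The treatment contrast kept 3 under the other scalings, DESeq2 and the replicate block, 3 to 4 when each mouse was left out, 0 when adjusted for the percentage of reads outside genes, and 0, 1 (*Casp4*, higher) and 0 in library sets 1, 2 and 3 alone. The values for single genes count only the lowest and the highest leave-one-out fit of each gene. Of 144 such values in each contrast, 3 lost their call in the disease contrast and 1 in RGLS4326 vs UNT. In the treatment contrast 12 lost it, 2 gained it and 9 changed sign. Those that changed sign were all uncalled: *Casp1* at 0.44 in set 2 and in leave-one-out fits (-0.127 to 0.0099, the highest without PBS replicate 9), *Casp4* at -0.0893 with that adjustment and -0.027 in set 1, *Gsdmd* in leave-one-out fits (-0.101 to 0.0035, the highest without PBS replicate 9), and *Ripk1* at 0.0011 with no filter, 0.0243 with that adjustment, 0.128 in set 3 and in leave-one-out fits (-0.0283 to 0.0071, the highest without PBS replicate 4). The cause was not tested. Whether the replicate numbers pair the mice was not settled. Of 11 PBS and RGLS4326 pairs of the same number, 5 had deviations correlated above 0.1 (highest r = 0.443), and pairs of different numbers were not compared. The replicate block gave 9, 3 and 9 called genes. Without length correction 15 of 27 ranks of level moved. Depth limits *Nlrp3* most, at 8 to 207 counts.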

Other observations

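*Pycard* and *Casp1*, whose products sit in the same complex, went together in PBS mice (r = 0.713 over 11 mice) and in opposite directions in RGLS4326 mice (r = -0.736 over 11 mice), with r = 0.143 over the 12 UNT mice. This pair was chosen after its values were seen, and the difference was not tested. Among the RGLS4326 mice the percentage of reads outside genes went with *Casp1* at r = 0.794 and with *Pycard* at r = -0.835, and among PBS mice at -0.241 and -0.708. *Casp1* went with its neighbour *Casp4* at r = 0.725 in RGLS4326 and 0.162 in PBS mice. Over the 36 pairs of the 9 genes, 21 had r above 0.5 in PBS, 9 in RGLS4326 and 7 in UNT mice, and 0, 3 and 4 had r below -0.5.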
